A study of Mus musculus with 4 samples.

Results

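The circadian clock genes described here are Per1, Per2, Per3, Dbp, Clock, Arntl, Cry1 and Cry2, measured in hippocampus of the mouse. They were taken as every probe set, a group of short oligonucleotides that reads 1 transcript, that the platform annotation assigns to exactly 1 gene symbol among these 8. The rule found 8 of 8251 named genes, with 10 of 12422 probe sets besides controls, namely 3 for Cry1 and 1 for each other gene. Total RNA from 4 samples was hybridised to 4 Affymetrix Murine Genome U74Av2 arrays. The labels put all samples in a single group, hippocampus, and those used here give no strain, sex, age, treatment or time of collection, nor whether the samples came from separate animals. Any p-value below therefore measures only the spread between these samples, which may in part be technical. The samples are called 1 to 4, which are names without an order.

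The circadian clock is a loop of transcription and repression that runs in most cells of the body and keeps a period of about a day. CLOCK and BMAL1, the product of Arntl, bind E-box elements and switch on the Per and Cry genes, whose proteins return to the nucleus and repress CLOCK and BMAL1. The same activators drive Dbp and the nuclear receptor genes Nr1d1 and Nr1d2, whose products act on D-box elements and on Arntl. In the hippocampus, transcripts of the loop are known to oscillate with a phase later than in the suprachiasmatic nucleus, the pacemaker of the hypothalamus, and Per1 is also induced by neuronal activity and by glucocorticoids.

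Promoter sequence was taken from the RefSeq table of mouse build GRCm38.p6, which matched 7 of the 8 members, all but Per2, with 11 windows: 3 for Clock, 2 each for Per1 and Arntl and 1 for each of the others. The 250 bases before the start of transcription were searched for the elements through which the loop acts, on both strands. The first window of Per1 and those of Cry1, Per3 and Dbp are shown because they hold the E-box and D-box matches of the members or, for Dbp, belong to the analysed member with the widest range of signal. They are written 5′ to 3′ on the strand of the gene, with the matches in capitals. The first window of Per1 lies at chr11:69098699-69098948 (plus strand), that of Cry1 at chr10:85185055-85185304 (minus strand), that of Per3 at chr4:151044666-151044915 (minus strand) and that of Dbp at chr7:45704997-45705246 (plus strand).
Per1: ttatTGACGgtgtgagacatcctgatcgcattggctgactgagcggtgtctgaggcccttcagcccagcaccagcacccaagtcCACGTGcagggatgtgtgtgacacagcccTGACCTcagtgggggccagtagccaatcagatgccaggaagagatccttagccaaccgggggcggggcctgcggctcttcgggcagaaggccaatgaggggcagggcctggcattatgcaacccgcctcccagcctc
Cry1: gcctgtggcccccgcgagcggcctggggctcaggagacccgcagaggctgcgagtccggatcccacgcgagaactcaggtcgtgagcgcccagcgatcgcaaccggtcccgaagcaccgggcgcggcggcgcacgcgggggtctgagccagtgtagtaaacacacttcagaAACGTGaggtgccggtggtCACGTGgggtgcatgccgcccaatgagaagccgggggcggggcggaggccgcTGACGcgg
Per3: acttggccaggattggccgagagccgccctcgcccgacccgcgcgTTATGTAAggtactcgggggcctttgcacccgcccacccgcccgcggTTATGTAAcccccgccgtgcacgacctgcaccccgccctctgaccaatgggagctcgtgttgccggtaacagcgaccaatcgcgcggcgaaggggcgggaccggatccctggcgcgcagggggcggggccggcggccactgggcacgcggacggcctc
Dbp: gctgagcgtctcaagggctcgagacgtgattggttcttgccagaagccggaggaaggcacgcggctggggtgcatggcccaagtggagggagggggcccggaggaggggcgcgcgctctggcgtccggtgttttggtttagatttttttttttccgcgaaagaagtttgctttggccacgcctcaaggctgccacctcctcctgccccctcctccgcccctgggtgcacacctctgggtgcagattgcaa
The E-box CACGTG was found in 2 of the 11 windows of the members, 166 bases before the first start of Per1 and 60 bases before the start of Cry1, and in 6.02% of all 32851 promoter windows. The second window of Per1, at chr11:69099902-69100151 (plus strand), held no E-box and no AGGTCA. The variant CACGTT was found in 2 of the 11 windows, 79 bases before the start of Cry1 and 166 bases before that of Cry2, against 3.85% of all windows. The D-box, searched as TTATGTAA or TTACGTAA, occurred 2 times in Per3, 205 and 158 bases before the start, in 1 of the 11 windows and in 0.931% of all windows. The letters TGACG, the core of the cyclic AMP response element (CRE), were found in 4 of the 11 windows, both of Per1 and those of Cry1 and Cry2, and in 17.8% of all windows. The full element TGACGTCA was found in 0 of the 11 and in 1.55% of all windows. The letters AGGTCA, part of the element bound by REV-ERB receptors, were found in 2 of the 11 windows, 137 bases before the first start of Per1 and in a Clock window, against 14.0% of all windows. The Dbp window held none of these letters. A match is a description of the sequence, and no match says only that the letters are not in this window.

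Signals are given in array units after quantile normalization, which gives the 4 arrays the same distribution of values. Analysis was limited to the 6210 probe sets whose mean signal exceeded 104 units, the median over all of them, and 7 of the 10 clock probe sets were among them. Per2, with a mean of 77.0 ± 33.9 units (SD, n = 4), fell short of that level, as did the other 2 probe sets of Cry1. These last lay below the floor of 27.7 units, the 25th percentile of all normalized signals, in all 4 samples, with 0.287 to 11.1 units for probe set 161225_r_at and 1.75 to 6.85 units for probe set 94421_r_at. They carry no order between samples, and Cry1 was read through its probe set 94420_f_at, a type whose oligonucleotides may match related transcripts. Signals of different probe sets are not set against each other, since each has its own sensitivity.

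Across the 4 samples, Dbp had the widest range of the analysed clock genes and was lowest in sample 1, as was Per2, whose signal there is close to background, while Arntl, Cry1 and Cry2 stayed within 1.30-fold. Per1 was highest in sample 4, and Per3, Dbp and Clock in sample 3. None of the 7 analysed probe sets passed the test for variance beyond the trend of probe sets of like signal (limma, one-sided F test of the variance, Benjamini-Hochberg adjustment over 6210 probe sets, adjusted p from 0.775 to 0.997). The test called 0 of 6210 probe sets, a background of 0%. At an unadjusted p under 0.05, it counted 1 of 7 members, Dbp, against a background of 5.62%. Dbp and Clock, 2 of the 7, spanned 2-fold or more, against a background of 15.2%. The median range of the 7 genes was 1.60-fold, and that of all 4824 analysed genes was 1.43-fold. The values that follow are therefore descriptions of 4 samples.

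**Figure D1:**
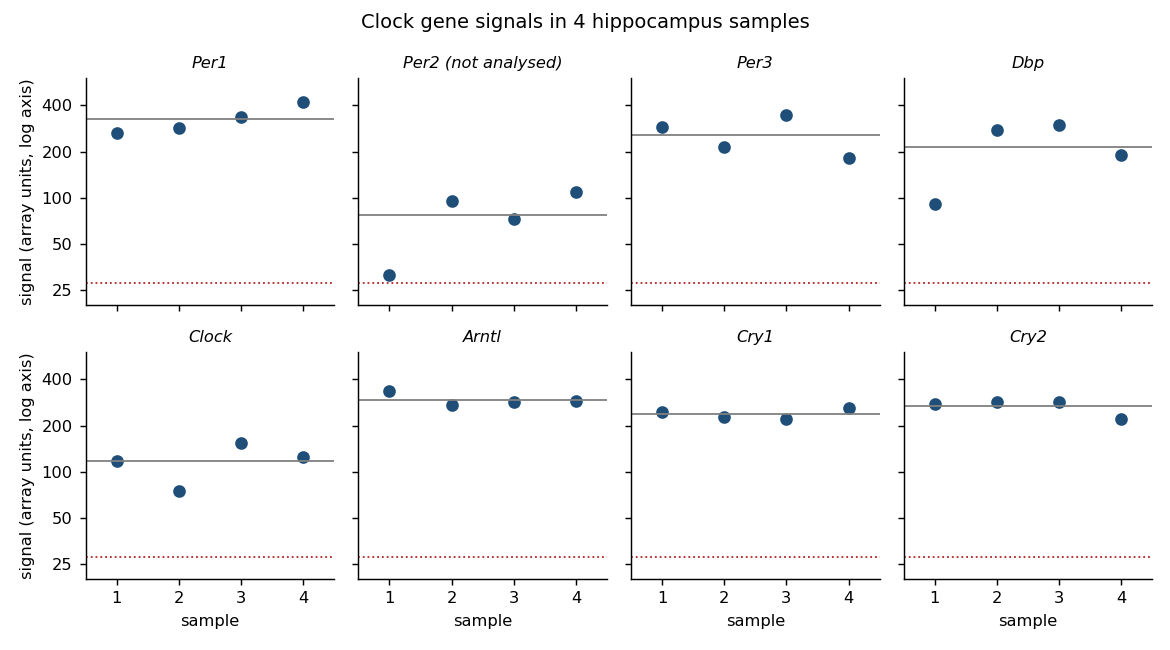
Signal of each clock gene in array units (log axis) in the 4 hippocampus samples, 1 point per sample, with the mean of the 4 signals as a grey line and the floor of 27.7 units as a dotted red line. Dbp and Per2 lie lowest in sample 1, at 91.5 and 31.2 units, whereas the points of Arntl, Cry1 and Cry2 stay close to their lines.

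Of the activators, Arntl varied little and Clock more. Arntl, which encodes the obligate partner BMAL1, gave 335, 272, 284 and 290.5 units in samples 1 to 4, a mean of 295 ± 27.4 (SD, n = 4) and a range of 1.23-fold. Sample 1 stood highest and the other 3 lay within 1.07-fold of each other. The SD of its log2 signal was 0.52 times the SD that the trend gives for probe sets of like signal. Clock, the other subunit of the activator and a histone acetyltransferase, gave 118, 75.2, 155 and 125 units (mean 118 ± 32.9, SD, n = 4). It was lowest in sample 2 and highest in sample 3, a range of 2.06-fold that fell to 1.93-fold in the deposited values without further normalization and to 1.33-fold without sample 2. Its log2 SD was 1.03 times the trend (limma, adjusted p = 0.994), so that its range is usual for a probe set of that low signal. Npas2, a forebrain paralog of Clock, was below the floor in 4 of 4 samples.

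Among the Period genes, which encode the repressors with PAS domains, each had an order of samples of its own. Per1 gave 263, 285, 334 and 422 units in samples 1 to 4 (mean 326 ± 70.6, SD, n = 4). Sample 4 was highest, with a log2 deviation of 0.53 from the mean of the other 3 samples, and samples 1 and 2 were low, a range of 1.60-fold. Per2 gave 31.2, 95.8, 72.5 and 108 units. In sample 1 it lay just above the floor, where a signal cannot be told from background, and the other 3 samples were higher. Its range of 3.47-fold is therefore rough: it was 2.63-fold with an offset of 16 units in place of the floor, and 1.50-fold without sample 1. Per2 was not in the main test because of its low mean. When every probe set was tested its adjusted p was 0.203 (limma), in a fit in which 1767 probe sets lay at the floor in all samples. Per3, which is not required for the loop and is often strongly rhythmic, gave 289, 214.5, 346 and 183 units (mean 258 ± 73.6, SD, n = 4). It was highest in sample 3 and lowest in sample 4, where Per1 and Per2 were highest. The log2 SD was 1.24 times the trend for Per1 and 1.58 times for Per3 (limma, adjusted p = 0.994 for each).

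The Cryptochrome genes, whose products hold the repressor complex on CLOCK and BMAL1, were among the steadier members. Cry1 gave 245, 229, 219 and 261 units in samples 1 to 4 (mean 239 ± 18.5, SD, n = 4), a range of 1.19-fold and a log2 SD of 0.42 times the trend. Cry2 gave 276, 286, 285 and 221 units (mean 267 ± 31.2, SD, n = 4). Samples 1 to 3 lay within 1.04-fold of each other and sample 4 was below them, a range of 1.30-fold in all. The log2 SD of Cry2 was 0.70 times the trend, so that its whole spread was below that of probe sets of like signal.

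The output member Dbp, a transcription factor of the PAR bZIP family that binds D-boxes and is switched on by CLOCK and BMAL1, had the widest range of the analysed members. It gave 91.5, 278.2, 299.9 and 190.7 units in samples 1 to 4 (mean 215 ± 95.0, SD, n = 4). Sample 1 stood lowest, 1.46 log2 units below the mean of the other samples, samples 2 and 3 were high and close together, and sample 4 lay between. The range was 3.28-fold and the log2 SD was 2.71 times the trend (limma, adjusted p = 0.775, and 0.695 to 0.987 over the alternatives with a signal filter). Without sample 1 the range was 1.57-fold. The 3' probe set of Actb over its 5' probe set, a ratio that is higher where RNA or its copy is less complete, gave 1.84, 1.64, 1.51 and 2.03 in samples 1 to 4. The same ratio was 0.887, 0.864, 0.981 and 1.15 for Gapdh and 2.62, 1.81, 3.03 and 3.16 for pyruvate carboxylase, and the part of RNA quality in the low Dbp of sample 1 was not tested.

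**Figure D2:**
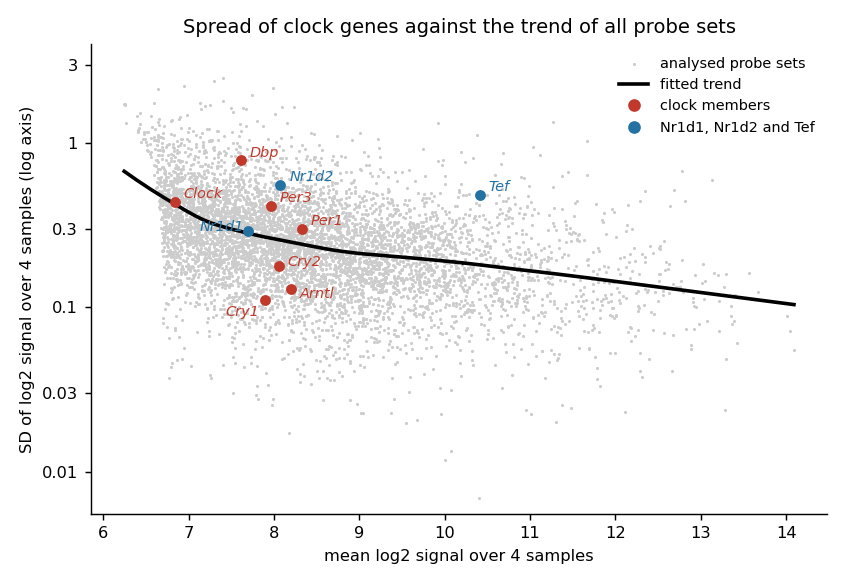
SD of the log2 signal over the 4 samples (log axis) against the mean log2 signal for the 6210 analysed probe sets (grey), with the fitted trend (black), the 7 analysed clock members (red) and Nr1d1, Nr1d2 and Tef (blue). Dbp, at 2.71 times the trend, and Tef lie inside the upper part of the cloud, and Cry1, Arntl and Cry2 lie below the line.

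The other D-box factors were listed as Tef, Hlf and Nfil3. Additional activators and nuclear receptors of the loop were listed as Npas2, Arntl2, Nr1d1, Nr1d2, Rora and Rorb. Of these 9 genes, 6 were on the array with a probe set of their own and 3 were analysed, with 0 past the adjusted test. Tef, a PAR bZIP factor like Dbp, gave 1293, 1388, 2080.4 and 920.4 units in samples 1 to 4, a range of 2.26-fold. Nr1d2, which encodes the repressor REV-ERBβ, gave 279, 288, 409.5 and 161 units, a range of 2.55-fold. Nr1d1, which encodes REV-ERBα, gave 190.2, 172, 207 and 274.5 units, a range of 1.60-fold. Tef, Nr1d2 and Per3 shared their highest sample, 3, and their lowest, 4, whereas Nr1d1 and Per1 were highest in sample 4. Without sample 4, the ranges of Nr1d2 and Nr1d1 fell to 1.46-fold and 1.19-fold, and that of Tef to 1.61-fold. Without sample 3, that of Tef fell to 1.50-fold. Rora, below the analysed level, gave 91.2, 75.2, 151 and 85.7 units with its brighter probe set and was likewise highest in sample 3. Nfil3, the repressor of D-boxes, was also below that level, and its 2 probe sets disagreed: the first was highest in sample 1 (79.3 units) and the second lowest there (31.4 units). The limma adjusted p was 0.786 for Tef, 0.898 for Nr1d2 and 0.994 for Nr1d1.

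Tef and Nr1d2 fell in the order 3, 2, 1, 4 from high to low, which is the order of the Actb ratio from low to high but not that of Gapdh or pyruvate carboxylase, whose ratios ran 2, 1, 3, 4 from low to high. This order, noticed after the values were seen, was shared by 3 of 32 analysed genes of the clock and related lists, namely these and Nampt, and by 4.81% of all analysed probe sets. Astrocyte genes moved with it in part: Slc1a2, a glutamate transporter, gave 189.7, 219, 373 and 107 units in samples 1 to 4, and the water channel gene Aqp4 gave 603, 739, 994 and 532 units. Gfap, the last of 3 analysed among 4 listed astrocyte genes, ran the other way, with 581 units in sample 3 and 1320.2 units in sample 4, and the summed signal of the 3 genes ranged from 1619 to 1959 units. Sample 3 also had the highest signal for 9 of 9 probe sets of added bacterial and phage transcripts, of which several read the same transcript. The part of RNA quality, astrocyte content and array preparation in these values was not tested.

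Repressors outside the Per and Cry families were listed as Bhlhe40, Bhlhe41, Timeless, Ciart, Cipc and Nono, of which 4 were on the array and analysed. Their ranges were 1.20-fold to 1.70-fold, and 0 passed the adjusted test. Bhlhe40, which encodes DEC1, a repressor that competes for E-boxes, gave 254, 422, 336 and 391 units in samples 1 to 4. Timeless, a partner of replication forks whose role in the mammalian clock is debated, gave 121, 145, 196 and 206 units. Both were lowest in sample 1, like Dbp, Per1 and Per2. Over the clock members and the 6 related lists, 11 of 32 analysed genes were lowest there, against a background of 23.3% of analysed probe sets.

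The enzymes that set the stability of PER and CRY proteins differed in spread. Of 11 listed kinases, phosphatases and ubiquitin ligases, 7 were on the array and analysed, with 0 past the adjusted test, 0 at an unadjusted p under 0.05 and 1 with a range of at least 2-fold. Their log2 SD ran from 0.57 times the trend for Csnk1d to 1.95 times for Csnk1e. Csnk1d, which encodes casein kinase 1δ, a kinase that marks PER proteins for decay, gave 1214, 1117, 1333 and 1254 units in samples 1 to 4. The related Csnk1e gave 421, 304, 562 and 290.2 units, and like Per3 it was highest in sample 3 and lowest in sample 4. Csnk2a1, a catalytic subunit of casein kinase 2, gave 298, 136, 243 and 267 units with its brightest probe set, a range of 2.20-fold. The other analysed probe sets of Csnk2a1 were highest in sample 1 and in sample 3, so that they did not share an order, and for Csnk1d, Csnk1a1, Btrc and Fbxw11 too the probe sets differed in their highest or lowest sample.

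Of 8 listed outputs of the clock, 6 were on the array and 4 were analysed, again with 0 past the adjusted test and ranges of 1.35-fold to 1.69-fold. Nampt, the limiting enzyme of NAD salvage and a direct target of CLOCK and BMAL1, gave 180.0, 201, 247 and 156 units in samples 1 to 4. Noct, a phosphatase of NADP(H) with a nocturnal peak in many tissues, gave 932, 1411, 1452 and 1573.5 units with its brightest probe set, lowest in sample 1, and 882.5, 969.9, 854 and 759.8 units with another, lowest in sample 4. Usp2, a rhythmic deubiquitinase, was lowest in sample 1 with both of its probe sets, at 643 and 400.0 units. Cirbp, an RNA-binding protein gene that is higher at low body temperature, gave 731, 778, 605 and 815 units and was lowest in sample 3. Among the outputs with too low a mean for analysis, Wee1, a cell cycle kinase gene with E-boxes, gave 38.6, 68.4, 46.1 and 118 units and was likewise lowest in sample 1. Tspan4 gave 62.9, 136, 109.6 and 26.5 units, the last below the floor.

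Genes induced together with Per1 through CREB or the glucocorticoid receptor were highest in the same sample as Per1 where their signal was high enough for analysis. Of 11 listed genes, all on the array, 7 were analysed, and 7 of these 7 were highest in sample 4, against a background of 31.1% of analysed probe sets. Earlier results of these data already showed this list to be high there, so that the count is no independent support. Fos, moreover, exceeded the analysed level of 104 units only through its signal in sample 4, so the filter itself favoured its place in the count. The kinase gene Sgk1 gave 439.9, 472, 528 and 1237 units in samples 1 to 4, the activity marker Fos gave 157, 55.5, 67.7 and 354 units, and Junb gave 293, 189, 164 and 573 units. Klf9, a glucocorticoid target that is also rhythmic, gave 639, 779, 1426 and 1545 units with its brightest probe set, lowest in sample 1 like Per1. Its other analysed probe set gave 199, 249, 176 and 354 units and was lowest in sample 3. The other analysed probe set of Junb was lowest in sample 2, at 82.9 units, where the brightest was lowest in sample 3. Both of these further probe sets were highest in sample 4. The log2 deviation of Per1 in sample 4 was 0.53, and the median of this list there was 0.79. The 4 genes below the analysed level went otherwise. Tsc22d3 was highest in sample 2 and lowest in sample 4, at 29.15 units, Creb1 was highest in sample 3 with each of 3 probe sets, and Nr3c1 was highest in sample 1. Crem was highest in sample 1 or 2 depending on the probe set, and a dim second probe set of Fos was highest in sample 1. Sample 4 stood apart over the whole array: across analysed probe sets, Pearson's r with the other samples was 0.907 to 0.925, and 0.941 to 0.949 among samples 1 to 3. The 3' to 5' ratios of Actb, Gapdh and pyruvate carboxylase were highest there. The glial genes Gfap, Mbp and Mal were also highest in sample 4, at 1320.2, 4883 and 992 units. Other glial genes went otherwise. Slc1a2, Aqp4 and the microglial gene C1qa were lowest in sample 4, and Mog, C1qb and Csf1r were highest in sample 2. Camk2a gave 29.4 units in sample 4 against 321 to 629.7 units in the others. The other analysed genes of principal neurons did not share this fall. Neurod2 was highest in sample 4, at 909 units, and Calb1 and Dsp lay between their extremes there, at 544 and 351 units. The part of RNA quality and cell content in these values was not tested. The limma adjusted p was at least 0.654 for the genes of this list. Over the clock members and the 6 related lists together, 6 of 32 analysed genes had an unadjusted limma p under 0.05. They were Dbp, Tef, Fos, Junb, Sgk1 and Klf9, and 0 of the 32 had an adjusted p under 0.05. The backgrounds were 5.62% and 0% of analysed probe sets, and 245 and 0 of 4824 analysed genes. Fos, Junb, Sgk1 and Klf9 belong to the list already known to be high in sample 4, so that this count is no independent support either.

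**Figure D3:**
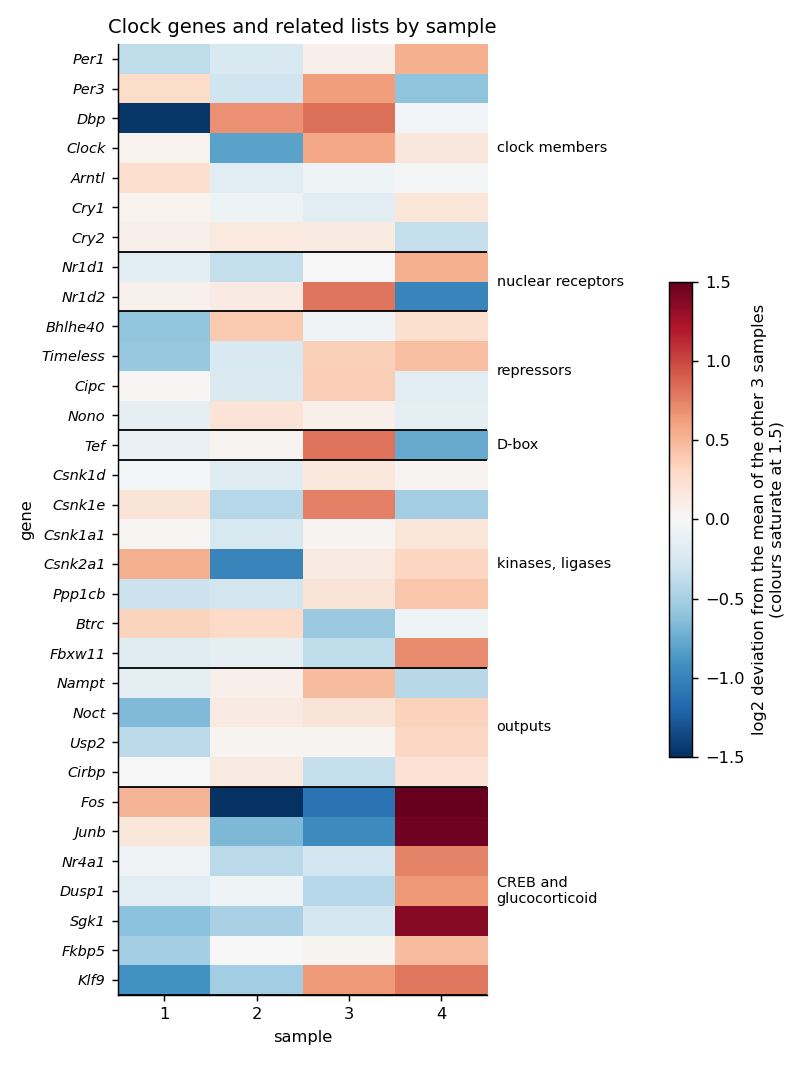
Log2 deviation of each analysed gene (rows, grouped by list) in each sample (columns) from the mean of the other 3 samples, with red for higher and blue for lower signal and colours saturating at 1.5 log2 units. The Dbp row is darkest blue in sample 1, Per3, Nr1d2 and Tef are red in sample 3 and blue in sample 4, and the CREB and glucocorticoid rows are red in sample 4.

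Taken over the analysed clock members, no sample had a deviation far from 0. Their median log2 deviation was 0.05, -0.16, 0.14 and -0.03 in samples 1 to 4, where the median of all analysed genes was 0.01, 0.01, 0.01 and 0.02. The number of the 7 members above the mean of the other samples was 5, 2, 5 and 3. The highest signal lay in samples 1, 2, 3 and 4 for 1, 1, 3 and 2 members, against a background of 24.7%, 21.6%, 22.5% and 31.1% of analysed probe sets. The lowest lay there for 2, 2, 1 and 2 members, against 23.3%, 22.7%, 23.4% and 30.7%. Over the 7 members, samples 2 and 3 were closest, with a median absolute log2 difference of 0.11, and the other pairs of samples gave 0.26 to 0.37. Over all analysed probe sets this difference ranged from 0.21 to 0.30.

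In tissues with a running clock, E-box targets such as Dbp, the Per genes and the Nr1d genes peak far from Arntl, Clock and Cry1, so the difference between both sets was computed in each sample. The sets follow this expected phase and not the promoter search, in which the Cry1 window held CACGTG and CACGTT and those of Per3 and Dbp held neither. The mean log2 deviation of 7 analysed E-box targets (Dbp, Per1, Per3, Nr1d1, Nr1d2, Tef and Bhlhe40) was -0.34, 0.05, 0.44 and -0.16 in samples 1 to 4. That of Arntl, Clock and Cry1 was 0.12, -0.35, 0.12 and 0.11. In sample 1 the mean of the targets was lowest, with 2 of 7 above the mean of the other samples. The largest deviation among them was that of Dbp, at -1.46. All 3 opposite genes lay above the mean of the other samples, Arntl by 0.25 but Clock and Cry1 by only 0.05 each. In sample 2 the counts above that mean were 4 of 7 and 0 of 3. The difference, targets minus opposite genes, was -0.45, 0.40, 0.32 and -0.26, with an SD of 0.42 over the 4 samples. Since deviations are taken between the 4 samples, the 4 differences sum to 0 and some must fall on each side. Those of samples 2 and 3 were above 0 and those of samples 1 and 4 below it. With a sample left out, the difference ranged from -0.60 to -0.36 in sample 1, from 0.28 to 0.57 in sample 2, from 0.19 to 0.51 in sample 3 and from -0.47 to -0.15 in sample 4. With Arntl alone as the opposite gene the differences were -0.58, 0.21, 0.51 and -0.13, that of sample 2 was 0.01 without sample 1, and that of sample 4 was 0.05 without sample 3. In sample 4 the targets divided. Per1, Nr1d1 and Bhlhe40 lay above the mean of the other samples and Per3, Dbp, Nr1d2 and Tef below it. The labels used here give no time of collection, so the differences cannot be assigned to a phase of the cycle.

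**Figure D4:**
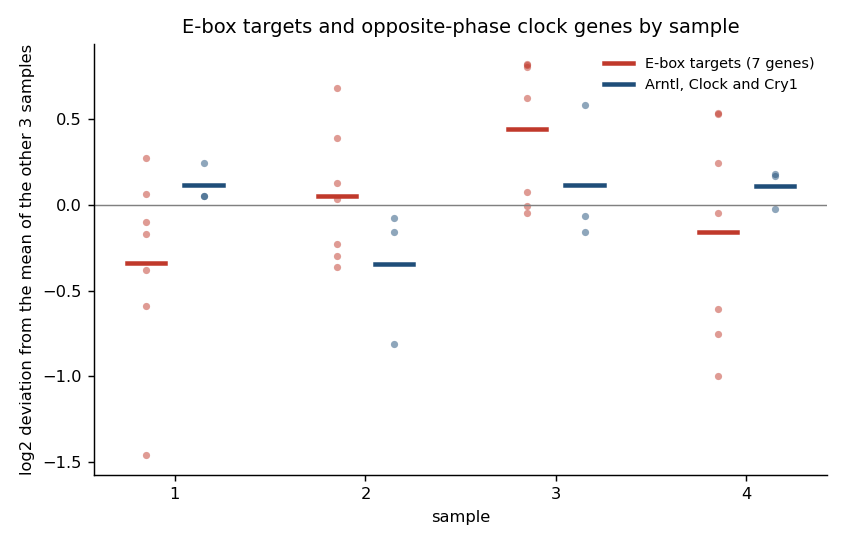
Log2 deviation from the mean of the other 3 samples for 7 E-box targets (red points) and for Arntl, Clock and Cry1 (blue points) in each sample, with the mean of each set as a bar. The red bar lies below the blue bar in samples 1 and 4 and above it in samples 2 and 3, and the red points of sample 4 spread on both sides of 0.

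The 4823 other analysed genes were ranked by the likeness of their profile to those of Dbp and Clock, the 2 analysed members with the widest range. Likeness was the Euclidean distance between log2 profiles over the 4 samples, each centred on its mean, and with so few samples a close match is no sign of a shared role. The genes nearest to Dbp were Ctsk (distance 0.24), Notch1 (0.27), Msx3 (0.40), Hyal2 (0.41) and Otulinl (0.42). Ctsk, a cathepsin gene, gave 47.1, 134, 137 and 109 units in samples 1 to 4, and Notch1, a receptor gene, gave 53.3, 179, 194 and 98.3 units. Nearest to Clock were St6galnac2 (0.09), Ntrk3 (0.15), Wipi2 (0.15), Nhsl2 (0.16) and Klf3 (0.16). Among the 7 members themselves, Arntl and Cry1 had the most alike profiles, at a distance of 0.23, and Clock and Dbp the least, at 1.61.

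Marker genes listed for the tissue bear on which cells gave these signals, and some of them are given here. Neurod2, a factor of forebrain principal neurons, gave 622 to 909 units, and Calb1 and Dsp, which mark granule cells, gave 522 to 665 units and 199 to 375 units. Prox1 was below the analysed level. Of 10 listed genes of the hypothalamus and the suprachiasmatic nucleus, 9 were on the array and 8 of these were below the analysed level, with Six3 and Six6 below the floor in 4 of 4 samples. Vip and Lhx1, which mark the suprachiasmatic nucleus among other places, gave 54.6 to 109.7 units and 67.9 to 104 units. Trh gave 59.9 to 88.0 units, Hcrt 31.6 to 90.5 units and Pomc 29.9 to 66.2 units, all above the floor in each sample, and whether such low signals are transcripts or background was not tested. Avp was above the floor in samples 3 and 4 only, at 86.2 and 28.65 units, and Oxt gave 174 to 337 units, highest in sample 4. The summed signal of 3 genes of red blood cells was 14124, 11046, 4525 and 8627 units in samples 1 to 4, and that of 3 of 4 listed choroid plexus genes was 2955, 1584, 1104 and 2196 units. Both sums were highest in sample 1, where Dbp and Per2 were lowest. The choroid plexus sum there was mostly Ttr, at 2629.5 units. Ttr and Folr1 were highest in sample 1, but Kl was highest in sample 4, at 247 units. Of the red blood cell genes, Hba-a1 and Hbb-b2 were highest in sample 1 and Alas2 in sample 2. The part of these cells in the result was not tested. In bulk samples, fewer cells of a type cannot be told apart from less RNA per cell.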

How the data were processed

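Total RNA of 4 mouse hippocampus samples was measured on 1 array each. The deposited table holds a linear intensity per probe set, never negative. How the authors made them is not given in the sources used here. In the values, the mean after trimming 2% at each end was 250.1 units on each array, so a shared scaling preceded deposit. The number of arrays limits the precision.

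Leaving out 66 controls, arrays were quantile normalized (limma 3.58.1, R 4.3.3), values under the 25th percentile were raised to it, and log2 was taken. Symbols were taken from the platform annotation and updated to those of GRCm38.p6 through Entrez identifiers for 10817 of 10833 probe sets with 1 symbol. A gene was represented by its brightest analysed probe set. The variance of each probe set was compared with the intensity trend (limma, robust prior, one-sided F test, 3 residual and 5.06 prior degrees of freedom, Benjamini-Hochberg at 0.05 over all analysed probe sets), after the test had been tested on simulated data. No pair of samples was identical (Pearson's r 0.907 to 0.949 across probe sets).

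Members and lists were chosen with earlier results of these data known. Named were all members, the first 2 analysed genes of each related list, those with a range of at least 2-fold, and the 5 nearest profiles; dim genes, further probe sets and cell markers were added after their values were seen, and 1 listed gene is not reported here. Alternatives covered normalization, floor, filter, prior, probe set choice and leaving out each sample.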

Additional observations from a re-analysis of the deposited data

Results flagged for a closer look

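Cry2 was the only 1 of 42 probe sets of the clock and related lists in which a sample lay apart from the other 3 by Dixon's ratio. The gap below its lowest sample, sample 4, took up 0.859 of the whole log2 range, above the 95% critical value for 4 samples. The signals were 276, 286, 285 and 221 units in samples 1 to 4, and the range without sample 4 was 1.04-fold. Chance flags about 1 in 20 such groups, and 6% of analysed probe sets without a value under the floor were flagged, 371 of 6187. The gap is small in size, since the whole range was 1.30-fold.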

How the results depend on the processing

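The variance test called 0 probe sets of the whole table under each of 10 alternatives, so that the count of 0 clock probe sets says nothing about stability. The limma adjusted p of the 7 members was 0.695 or more under each of them except without the signal filter, where it was 0.203 to 0.247 in a fit with 0.790 prior degrees of freedom. The range of Dbp was 2.94-fold to 3.33-fold under the settings that kept every sample. The median deviation of the members in sample 3 was 0.14 and became 0.29 without sample 4, with 0.18 to 0.29 over the samples left out. In sample 4 it was -0.03 and ranged from -0.086 to 0.14, the highest without sample 3, so that its sign is not settled. In samples 1 and 2 it ranged from 0.03 to 0.13 and from -0.14 to -0.06 over the samples left out. The difference between E-box targets and opposite genes sums to 0 over the 4 samples, also with Arntl alone, so that its signs are no measure of stability. With Arntl alone the sign was the same in 31 of 32 pairs of sample and alternative. Many of these pairs could not differ, since the floor at the 10th percentile and the median over probe sets returned the main values in each sample. Median scaling moved the median of all probe sets to 0.11 in sample 4 and -0.09 in sample 2. No paired analysis was possible because the labels give 1 group without shared replicate numbers. Without detection calls a low signal such as that of Per2 in sample 1 cannot be told from background.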
